A study of Drosophila melanogaster with 6 samples.

Results

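The Cpr genes are the Drosophila cuticle protein genes whose symbol is Cpr followed by the number of the chromosome band they lie in. They were chosen as every protein-coding gene of the dm6 annotation with such a symbol. The rule itself used no measured value, but it was set with earlier results of these data known. The rule found 70 genes of 13945 protein-coding genes on the 6 chromosome arms, and NCBI's RefSeq annotation holds the same 70 symbols. Of these 70 genes, 35 lie on arm 3L, 21 on 2R, 5 on 2L, 5 on 3R and 4 on X, with none on chromosome 4. The measurement was chromatin immunoprecipitation followed by sequencing (ChIP-seq) of Flag-tagged Dwg in S2R+ cells, which were established from Drosophila embryos. The series holds 2 Flag-Dwg ChIP libraries precipitated with an anti-Flag antibody, 2 libraries precipitated with an IgG control and 2 input libraries of chromatin taken before precipitation. The IgG libraries came from the same Flag-Dwg expressing cells, so no group lacks the tagged protein by the methods given. What drove Flag-Dwg expression in the ChIP cells, and at what level relative to the endogenous protein, is not given in the sources used here. The antibody label of the input libraries names dwg1 while their titles say input, which was taken as correct. Expression was not measured, so neither the activity of the Cpr genes in these cells nor the label of the line could be checked against marker genes.

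Cpr proteins are secreted by epidermal and tracheal cells and are assembled with chitin fibres into the cuticle, the outer skeleton of the fly. Most carry the Rebers and Riddiford (RR) consensus, a stretch of conserved residues that binds chitin, and many are made in bursts at particular moults under the control of the steroid hormone ecdysone. Their genes are typically short, with a small first exon, and stand in tandem clusters. Dwg, also known as Zw5, is a zinc finger protein that binds DNA and is known from insulators, elements that limit how far an enhancer acts. The question put to the data here was where Flag-Dwg summits lay in, next to and around the Cpr genes. The family label was checked against the core of the RR consensus in the protein sequences. The core was found without a mismatch in 6 of the 70 Cpr proteins (8.57%) and 0.136% of all 13945 proteins, and with up to 1 mismatch in 30 Cpr proteins (42.9%) and 1.63% of all. A wider form, set after seeing the first result, was found in 58 Cpr proteins (82.9%) and 0.753% of all. The 11 Cpr proteins with neither the core at up to 1 mismatch nor the wider form were Cpr30F, Cpr47Eb, Cpr47Ec, Cpr49Ac, Cpr62Ba, Cpr65Ay, Cpr72Ec, Cpr73D, Cpr97Ea, Cpr97Eb and Cpr100A.

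Peak summits come in 2 deposited lists, in which the Flag-Dwg libraries were set against IgG or against input. A summit is the single base with the most ChIP signal in a peak, and its score is the −log10 of the q-value given by the peak caller MACS2. The IgG list has 10950 summits (median score 12.9) and the input list has 12971 (median score 20.9). Both lists rest on the same Flag-Dwg libraries and are not replicates of each other. Neither carries a value per library, so depth is unknown, no replicate error can be given and no test between conditions was possible. Scores are compared only within a list.

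Few Cpr genes had a Flag-Dwg summit. In the list against IgG, 7 of 70 Cpr genes (10%) held a summit inside the gene or no more than 1000 bp from it, where 52.1% of all protein-coding genes did. In the list against input the count was 9 of 70 (12.9%), where 55.5% of all genes held one. Cpr50Cb, Cpr65Ec, Cpr30F, Cpr73D, Cpr47Eg and Cpr78Cb had a summit in both lists, Cpr51A only against IgG, and Cpr49Ac, Cpr56F and Cpr78Cc only against input. The remaining 60 Cpr genes had none in either list, while 56.8% of all protein-coding genes had a summit in at least 1 of them.

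Summits close to a Cpr start were rarer still. From 1000 bp upstream to 100 bp downstream of an annotated start, 2 Cpr genes (2.86%), Cpr30F and Cpr73D, had a summit against IgG, where 36.6% of all genes did. Against input it was 5 Cpr genes (7.14%), namely Cpr30F, Cpr49Ac, Cpr56F, Cpr73D and Cpr78Cc, where 39.6% of all genes did. When each summit was given to the gene with the nearest start at any distance, 6 Cpr genes (8.57%) received at least 1 summit against IgG, where 41.5% of all genes did. Against input 7 Cpr genes (10%) received one, where 45.6% of all genes did.

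**Figure D1:**
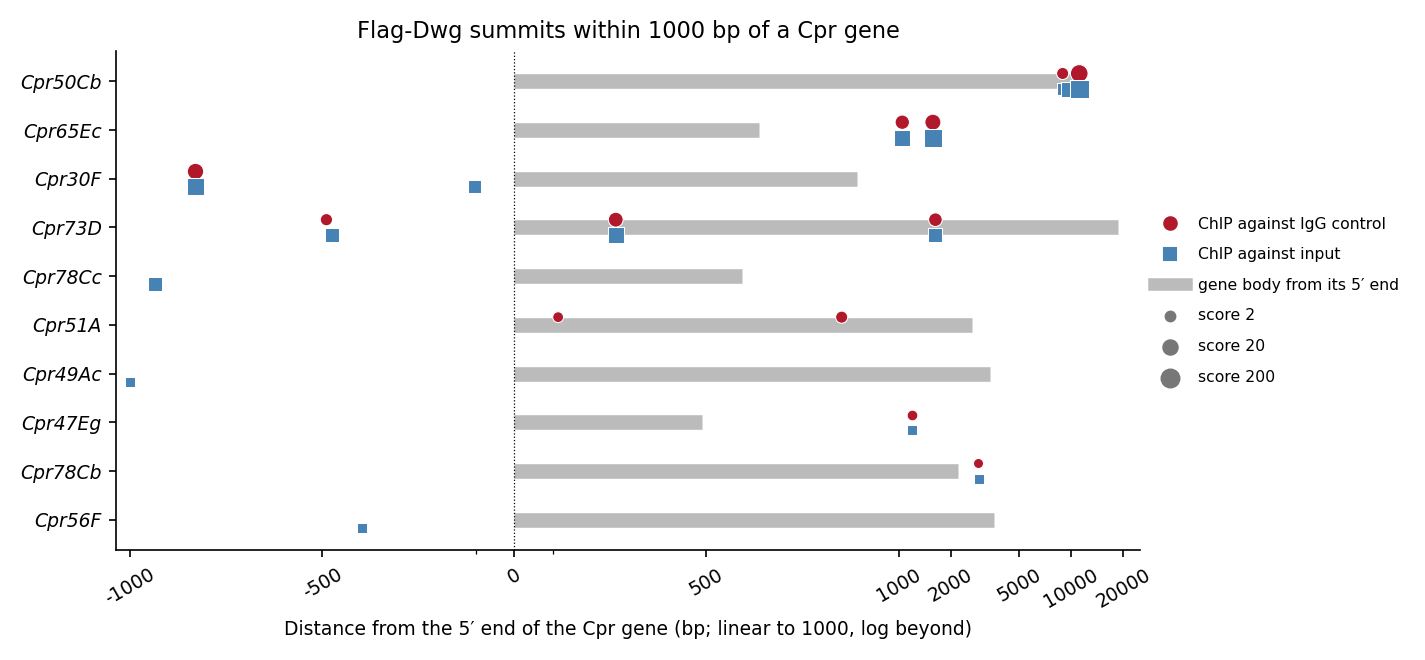
Flag-Dwg summits within 1000 bp of the 10 Cpr genes that had any; the x axis is the distance from the 5′ end of the gene in bp (linear to 1000, logarithmic beyond), grey bars are gene bodies, red circles are summits against IgG and blue squares summits against input, and symbol size grows with the score within its list. The summits with the highest scores, 169.8 at Cpr50Cb, 69.0 at Cpr30F and 55.4 at Cpr65Ec against IgG, lie outside the gene bodies.

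The 7 Cpr genes with a summit against IgG held 12 summits, and their highest scores per gene had a median of 26.5, with 29.7 over all genes with a summit. Against input the median was 16.2 for the Cpr genes and 59.7 over all genes with a summit. For 8 of the 12 summits against IgG the nearest start belonged to a gene outside the family. For 4 it was that of the Cpr gene itself, in Cpr30F, Cpr47Eg, Cpr51A and Cpr73D. The highest summit of the gene lay nearest to the gene's own start in 2 of the 7 Cpr genes, Cpr30F and Cpr47Eg, and in 56.5% of all genes with a summit. The 4 summits nearest to a Cpr start had a median score of 4.73, and the other 8 had a median of 16.3. Against input, 6 of the 15 summits at Cpr genes were nearest to the Cpr gene's own start, with a median score of 6.36, and the other 9 had a median of 30.1. Most summits counted at Cpr genes were therefore closer to the start of a neighbouring gene.

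Cpr30F (FBgn0051876, arm 2L, 9932272 to 9933163, minus strand) was the Cpr gene with the strongest summit of its own. Its summit at 9933993 scored 69.0 against IgG, rank 1265 of 10950, and 100.9 against input at the same base. It lies between genes, 830 bp upstream of the only annotated start of Cpr30F. A further summit 103 bp upstream of that start scored 9.49 in the list against input, and the nearest summit against IgG was 727 bp from it. A weaker summit 2133 bp upstream, in a coding exon of the neighbour Arglu1, scored 5.65 against IgG and also had the Cpr30F start as its nearest. Cpr30F was thus the only Cpr gene to which more than 1 summit against IgG was assigned by start.

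Cpr65Ec (FBgn0035737, arm 3L, 7093204 to 7093841, plus strand) had its summits on the downstream side. They scored 19.7 at 7094255 and 55.4 at 7094784 against IgG, and 46.8 and 143.2 at bases 4 and 1 bp away against input. They lie between genes, 414 and 943 bp beyond the 3′ end of Cpr65Ec. The nearest start was that of form3, a formin, an actin-assembling protein, 563 and 34 bp away. No summit of either list lay within 1000 bp of the start of Cpr65Ec.

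Cpr73D (FBgn0036680, arm 3L, 16939100 to 16957689, minus strand) had the most summits of the family against IgG, 3, and overlaps 2 genes of the opposite strand, Ogdh, which encodes oxoglutarate dehydrogenase of the citric acid cycle, and Obp73a, an odorant-binding protein gene. The summit at 16957425 scored 26.5 against IgG and 54.9 against input. It lies in the 5′ UTR of Cpr73D, 264 bp downstream of the Cpr73D start and 14 bp from a start of Ogdh. The summit at 16956055, in introns of both genes, scored 13.0 against IgG, with 12.7 against input 8 bp away. The remaining summit, at 16958178, scored 6.25 against IgG and 13.8 against input, and lies 489 bp upstream of the Cpr73D start within an intron of Ogdh. Only this last summit was nearest to a Cpr73D start, so which of the overlapping genes the signal belongs to cannot be told apart from position.

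To show the letters that these summits share, the 101 bases centred on the 3 Cpr summits that hold CGATA are printed from dm6, 5′ to 3′ on the strand of the Cpr gene. They are the Cpr30F summit (chr2L:9933943-9934043, minus strand), the Cpr65Ec summit on the side of form3 (chr3L:7094205-7094305, plus strand) and the Cpr73D summit upstream of its start (chr3L:16958128-16958228, minus strand). Capitals mark CGATA on either strand, letters known from binding sites of the insulator protein BEAF-32, and TATCGATA, the palindrome bound by DREF, which contains CGATA on both strands.
Cpr30F: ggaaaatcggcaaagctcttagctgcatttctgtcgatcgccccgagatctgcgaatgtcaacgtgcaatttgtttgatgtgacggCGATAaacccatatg
Cpr65Ec: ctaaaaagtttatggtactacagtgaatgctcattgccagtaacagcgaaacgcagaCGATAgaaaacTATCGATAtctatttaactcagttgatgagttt
Cpr73D: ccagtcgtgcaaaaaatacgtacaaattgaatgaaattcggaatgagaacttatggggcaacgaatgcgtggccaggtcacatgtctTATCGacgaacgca
Within 50 bp of the summit, CGATA occurred at these 3 of the 12 Cpr summits against IgG, with 12.9% of all summits of that list holding it. TATCGATA occurred at 1 of the 12, the Cpr65Ec summit printed here, and at 0.731% of all summits. GAGAG, letters bound by GAGA factor, occurred at 2 of the 12 and at 14.9% of all summits. These counts describe letters in the windows and are too few to set one share against another.

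Cpr50Cb (FBgn0033869, arm 2R, 13794777 to 13805231, plus strand) carried the highest score at any Cpr gene, but at the far end of the gene. The summit at 13805871 scored 169.8 against IgG, rank 404 of 10950, and 343.8 against input. It lies 640 bp beyond the 3′ end of Cpr50Cb in the 5′ UTR of stj, a voltage-gated calcium channel subunit gene, 77 bp from the stj start. Inside Cpr50Cb, a summit in a coding exon at 13803671 scored 5.81 against IgG and 4.60 against input, and a further one at 13804403 scored 30.1 in the list against input alone. The nearest summit to the start of Cpr50Cb was 8894 bp away.

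Cpr51A (FBgn0033942, arm 2R, 14512559 to 14515211, minus strand) had the closest summit to its own start among the Cpr genes in the list against IgG, 114 bp downstream in a coding exon, but at a score of only 3.21. A second, at 14514359, scored 5.84 and lies in the Cpr51A intron and a coding exon of CG30197, a gene on the other strand. Neither had a summit against input within 2000 bp, and the nearest summit against input to the start scored 29.8, 1945 bp upstream. Cpr47Eg (FBgn0086519, 2R, 11277957 to 11278445, minus strand) had a summit 703 bp beyond its 3′ end that scored 3.07 against IgG and 2.10 against input. Cpr78Cb (FBgn0037068, 3L, 21294492 to 21296698, plus strand) had one 665 bp beyond its 3′ end, in a coding exon of Edg78E, another RR cuticle protein gene, with scores of 2.29 against IgG and 2.98 against input. These are low scores for the lists, ranks 9921 and 10415 of 10950 against IgG.

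At 3 Cpr genes the list against input alone held a summit, in each case below that list's median score of 20.9. At Cpr49Ac (2R) the summit scored 3.24 and lies 999 bp upstream of the start, just inside the 1000 bp limit. At Cpr56F (2R) it scored 1.85, 397 bp upstream. At Cpr78Cc (3L) it scored 16.2, 935 bp upstream of its start and 901 bp from the start of CG43702.

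Summits of high score were also scarce at the Cpr genes. Against IgG, 4 Cpr genes (5.71%) had a summit with a score of at least 20, where 31.8% of all genes did, 1 (1.43%) had one of at least 100, where 9.82% did, and none had one of at least 200, where 4.37% did. Against input, 4 (5.71%) reached 20, where 42.1% of all genes did. Only Cpr50Cb reached 100 against IgG, through the summit at the stj start. Just outside the 1000 bp limit against IgG were Cpr31A, 1069 bp from a summit of 124.2 at Pen, which encodes an importin, Cpr47Ef, 1254 bp from a summit of 1.42, Cpr66Cb, 1458 bp from one of 3.04 at Prim1, a DNA primase gene, Cpr49Ac, 1646 bp from one of 18.3 at CG8501, and Cpr67B, 2319 bp from one of 51.8 at eIF4E1, a cap-binding translation factor gene. Just inside were Cpr30F at 830 bp, Cpr47Eg at 703 bp, Cpr78Cb at 665 bp and Cpr65Ec at 414 bp.

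The distance from the start of each gene to the nearest summit gave the same order without a limit. Against IgG the median over the 70 Cpr genes was 12349 bp (quartiles 4733.5 and 20913 bp), with 1762 bp over all genes (quartiles 144 and 12393 bp). No Cpr gene had a summit within 100 bp of its start, where 19.4% of all genes did, and 3 (4.29%) had one within 1000 bp, where 45.5% did. At 10000 bp the share was 45.7% of Cpr genes and 71.9% of all genes. At 50000 bp the order had turned, with 97.1% of Cpr genes and 93.5% of all genes. Farthest from a summit against IgG were Cpr35B at 62780 bp, Cpr12A at 59033 bp and Cpr5C at 38571 bp, where the distances against input were 31924 bp for Cpr35B and unchanged for the other 2. In the list against input the medians were 10535.5 bp for Cpr genes and 1164 bp for all genes.

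Other genes in the same neighbourhoods had summits more often. Outside the RR cuticle genes, 164 protein-coding genes lie within 10000 bp of a Cpr gene. In the list against IgG, 7 of 70 Cpr genes (10%) had a summit inside them or no more than 1000 bp away. Among these 164 neighbours it was 63 (38.4%), which was also below the 52.1% of all genes. Against input it was 9 of 70 Cpr genes (12.9%) and 70 of 164 neighbours (42.7%), where 55.5% of all genes had one. The median distance from start to summit against IgG was 12349 bp for the Cpr genes, 6452 bp for the neighbours and 1762 bp for all genes. Within 100 bp of the start, 0 Cpr genes, 20.1% of the neighbours and 19.4% of all genes had a summit against IgG. Within 1000 bp it was 35.4% of the neighbours and 45.5% of all genes.

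**Figure D2:**
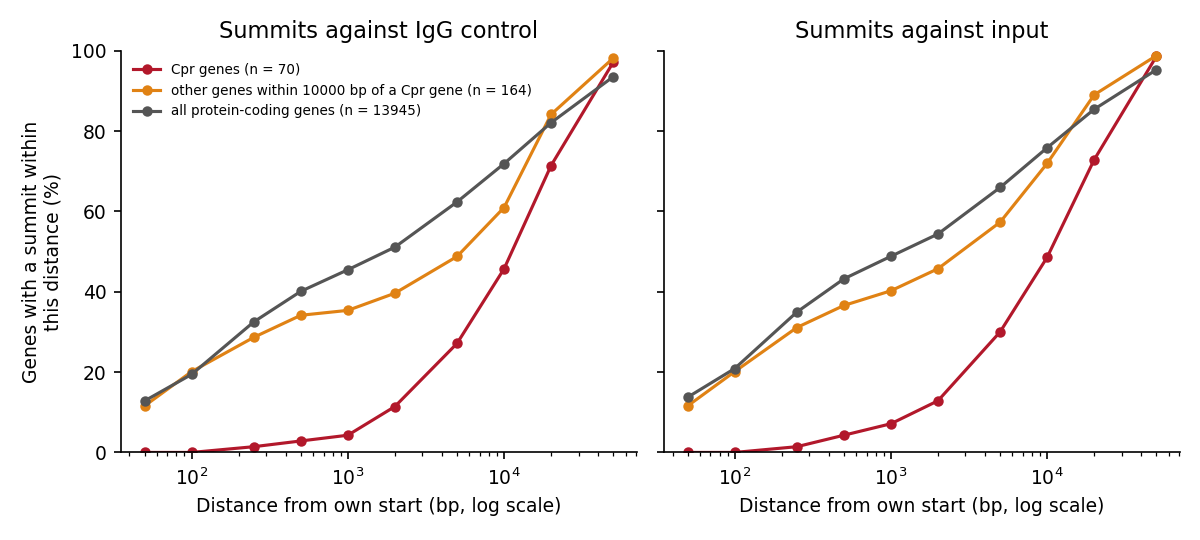
Share of genes (y axis, %) with a summit within a given distance of their own start (x axis, bp, logarithmic), for Cpr genes, their neighbours within 10000 bp and all protein-coding genes, with summits against IgG on the left and against input on the right. Within 1000 bp the curves stand at 4.29% of Cpr genes, 35.4% of neighbours and 45.5% of all genes against IgG, and all 3 come together near 50000 bp.

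Cpr genes are short, and short genes held summits less often, so the comparison was repeated by length. The median length was 1093.5 bp for Cpr genes and 2166 bp for all genes, with 2 and 4 exons at the median, and 90% of Cpr genes and 73.5% of all genes have a single annotated start. Below 1000 bp, 3 of 33 Cpr genes (9.09%) had a summit against IgG, where 26.9% of all genes of that length did. From 1000 to below 2000 bp it was 0 of 20 Cpr genes, where 48.4% of all genes did. From 2000 to below 5000 bp it was 2 of 10 (20%), where 60.8% did, and from 5000 bp upward 2 of 7 (28.6%), where 65.4% did. The Cpr share was below that of all genes in each of the 4 length classes, and the upper classes hold few Cpr genes. By arm, summits against IgG were found at 3 of 35 Cpr genes on 3L, where 52.2% of all genes had one, at 3 of 21 on 2R (53.0% of all genes) and at 1 of 5 on 2L (47.4% of all genes). None of the 5 Cpr genes on 3R (53.4% of all genes) and the 4 on X (54.3% of all genes) had one.

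Several Cpr genes lie within other genes, where a summit cannot be assigned by overlap. Cpr64Aa, Cpr64Ab, Cpr64Ac and Cpr64Ad lie inside CG43367 and Cpr11B inside hwt, and none of these 5 had a summit. Cpr57A has the same limits in the annotation as Obp57d, and on the opposite strand S-Lap7 lies inside Cpr50Ca, CG30197 inside Cpr51A and CkIIbeta2 inside Cpr56F, while Or47a overlaps Cpr47Ea in part. The authors kept uniquely mapped reads, so reads from close copies of a sequence can drop out. Of all 50-base words in a Cpr gene and 1000 bp around it, the median share found a single time in the genome was 100%, and it was at least 99% at 65 of the 70 Cpr genes. It was below 90% at Cpr65Ax2 (32.7%), Cpr65Ax1 (33.0%), Cpr73D (55.9%) and Cpr65Au (88.0%). Among the 63 Cpr genes without a summit against IgG, 60 were at 99% or more. Whether reads at Cpr65Ax1, Cpr65Ax2 and Cpr65Au were lost to multiple mapping was not tested.

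Cpr genes form clusters, and with all clusters pooled the summits were sparser inside them than in the 10000 bp outside. Runs of at least 3 Cpr genes with no more than 20000 bp between consecutive genes gave 10 clusters with 45 Cpr genes, covering 169452 bp. Inside them lay 7 summits against IgG, or 4.13 per 100 kb, with 8.18 per 100 kb over the 6 arms. The 10000 bp outside each border held 20 summits, or 10 per 100 kb. The pooled order was the same against input, with 9 summits inside (5.31 per 100 kb) and 9.69 per 100 kb over the arms. The flanks held 21 summits against input (10.5 per 100 kb). Single clusters, named here by their first gene, differed. Against IgG, those of Cpr49Aa and Cpr78Ca held 10.4 and 10.7 per 100 kb, above the arms, and against input 12.97 and 32.2. That of Cpr47Ea was below the arms, at 7.49 and 3.75, and the other 7 held none in either list. Flank summits against IgG were uneven, with 5 at Cpr64Aa, 4 at Cpr67Fa1 and 0 at Cpr62Ba, Cpr65Au and Cpr76Ba. Summits were found at 3 of the 45 clustered Cpr genes (6.67%) and at 4 of the 25 others (16%) against IgG, where 52.1% of all genes had one. Against input it was 5 of 45 (11.1%) and 4 of 25 (16%), where 55.5% of all genes had one.

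Against IgG, 7 of the 10 clusters held no summit between the first base of their first and the last base of their last Cpr gene. These were Cpr62Ba to Cpr62Bc, Cpr64Aa to Cpr64Ad, Cpr65Au to Cpr65Az, Cpr65Ea to Cpr65Ec, Cpr67Fa1 to Cpr67Fb, Cpr72Ea to Cpr72Ec and Cpr76Ba to Cpr76Bd, all on 3L. The cluster of 7 genes from Cpr65Au to Cpr65Az also holds 10 larval or adult cuticle genes of the Lcp and Acp type, none of which had a summit. It lay in a stretch of 78647 bp without a summit, and 3.43% of the 10944 intervals between consecutive summits were longer. Around the Cpr76Ba to Cpr76Bd cluster the stretch was 55055 bp and around Cpr62Ba to Cpr62Bc 48979 bp, where the median interval between summits was 1924 bp. A cluster of several genes occupies a long interval more readily than a single site does, so these intervals are given as a description. The shortest were 12097 bp at Cpr67Fa1 to Cpr67Fb and 11356 bp at Cpr78Ca to Cpr78Cc.

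The other 3 clusters held the 7 summits, some of them nearest to the start of a gene outside the family and some to that of a Cpr gene. In the cluster of 8 genes from Cpr49Aa to Cpr49Ah on 2R, all 4 summits against IgG, with scores of 13.95, 1.501, 36.6 and 18.3, had CG8501 as the gene with the nearest start, and no Cpr gene of the cluster was within 1000 bp of one. In the cluster of 7 genes from Cpr47Ea to Cpr47Eg on 2R, the summits scored 1.42, next to TpnC47D, a troponin C gene, and 1254 bp upstream of Cpr47Ef, and 3.07 downstream of Cpr47Eg, and both were nearest to the start of that Cpr gene. In the cluster of 3 from Cpr78Ca to Cpr78Cc the single summit was that in Edg78E. Of the 24 other protein-coding genes that lie within or across the cluster spans, 4 had a summit against IgG, where 52.1% of all genes did. These were CG8501, CG43367, TpnC47D and Edg78E, and the summits of CG43367 lie outside the cluster span. The 24 include the Lcp and Acp genes of the Cpr65Au to Cpr65Az cluster.

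**Figure D3:**
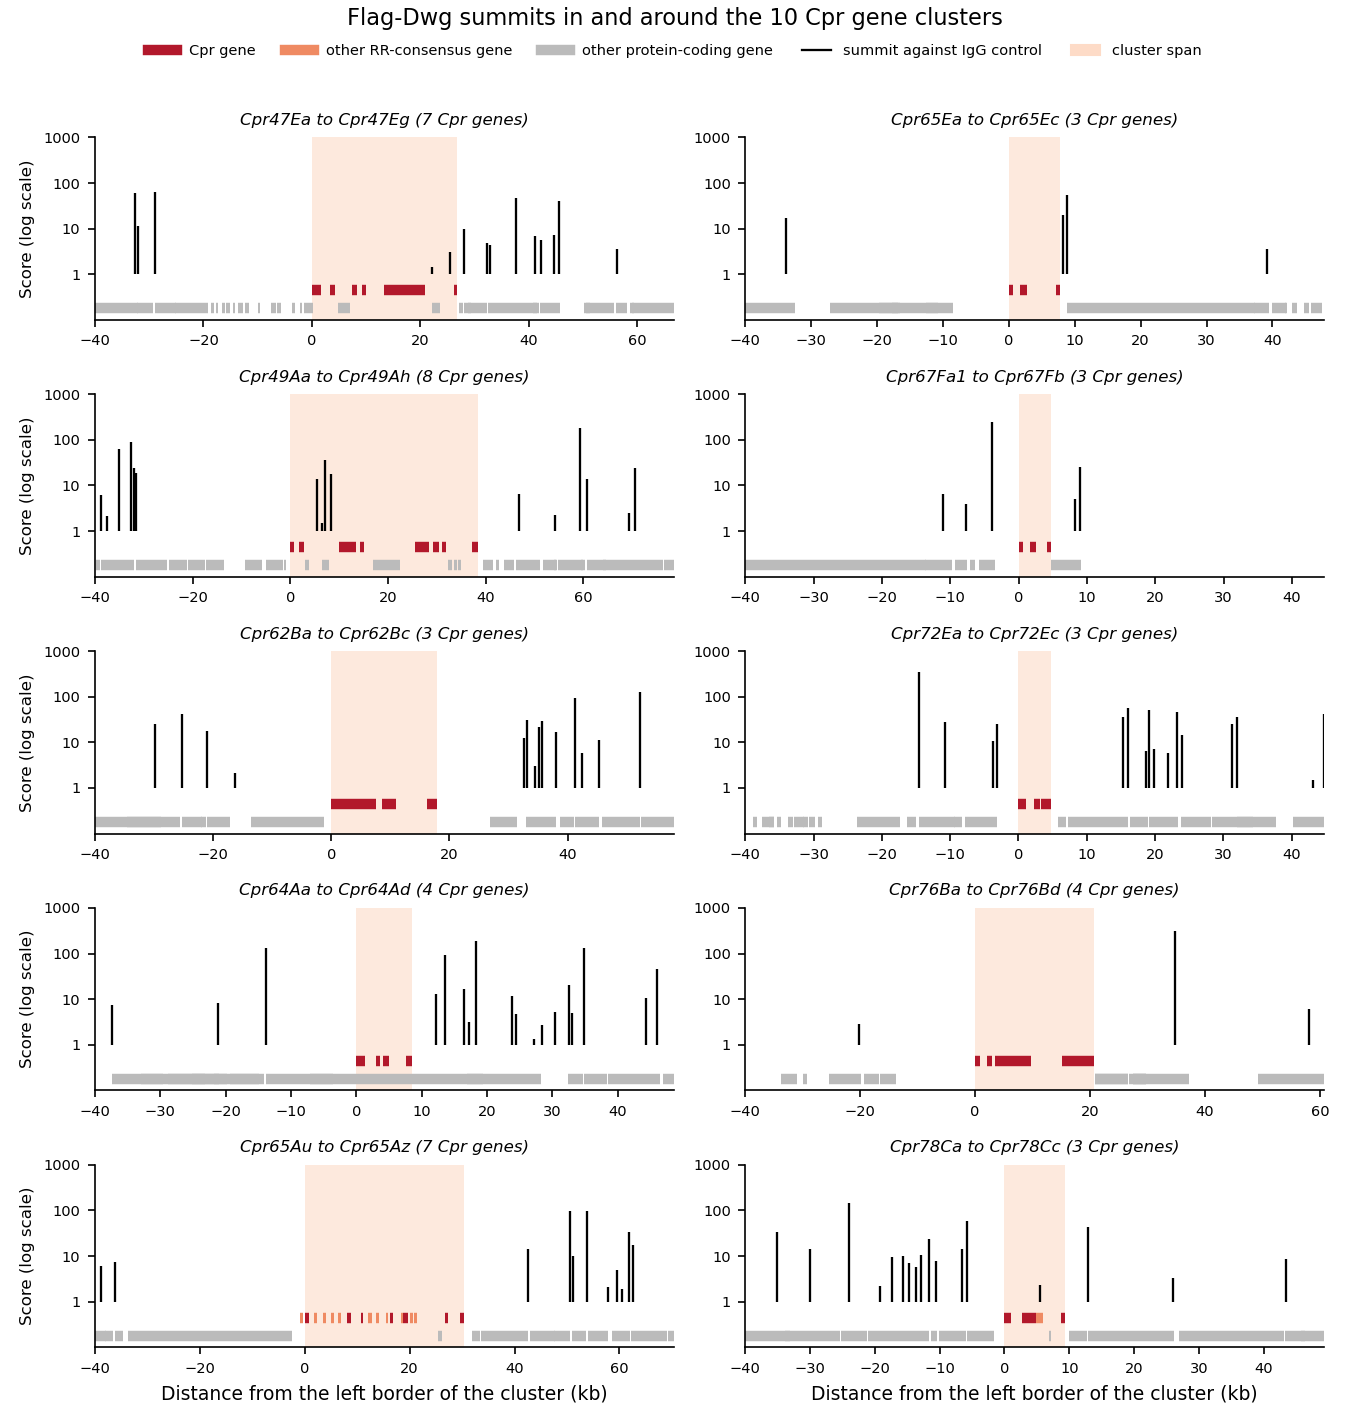
Summits against IgG (black lines, height is the score on a logarithmic axis) in and around the 10 Cpr clusters, plotted by distance from the left border of the cluster in kb, with Cpr genes in red, other RR cuticle genes in orange, other protein-coding genes in grey and the cluster span shaded. Inside the spans lie 7 summits in 3 of the 10 clusters, and the 10000 bp outside the borders hold 20.

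At the 20 borders of the clusters, the nearest summit outside against IgG lay between 414 and 36138 bp away, with a median of 11349 bp, and 9 of 20 were within 10000 bp. For 19 of the 20 the nearest start was that of a gene outside the family, and 13 (65%) lay within 200 bp of a start, where 38.1% of all summits did. Their median score was 17.8, with 12.9 over the whole list, and the range was 2.13 to 316.8. A border is the end of a run, with no further Cpr gene within 20000 bp outside it. A nearest start outside the family was therefore largely fixed by how the clusters were built. The border summit whose nearest start was that of a Cpr gene lay right of Cpr64Ad, with a score of 13.1. It lies in an intron of CG43367, 4696 bp from the start of Cpr64Ad.

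The highest border scores were found at 3 clusters of arm 3L. A summit of 316.8 lay 14076 bp right of Cpr76Bd, 55 bp from the start of CG9300. A summit of 241.4 lay 3871 bp left of Cpr67Fa1, 69 bp from a start of OXA1L, which encodes a protein insertase of the mitochondrial inner membrane. A summit of 130.3 lay 13851 bp left of Cpr64Aa, 6 bp from the start of CG43367, the gene that encloses the cluster. In each case the Cpr genes began several kilobases further in and had no summit.

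On the other side of the same clusters the scores were lower, 2.86 at CG9449, 20242 bp left of Cpr76Ba, and 5.05 at Aps, a diphosphoinositol phosphate hydrolase gene, 3523 bp right of Cpr67Fb. The Cpr72Ea to Cpr72Ec cluster had 24.7 at ringer, a tubulin-binding protein gene, 3164 bp to its left, and 36.6 at roq, a Roquin homologue that binds RNA, 10536 bp to its right. The Cpr78Ca to Cpr78Cc cluster had 58.9 at CG12974, 5853 bp to its left, and 43.5 at CG7632, 3579 bp to its right. These 2 clusters thus had a summit between 3164 and 10536 bp away on both sides, each nearest to the start of a gene outside the family.

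The remaining 5 clusters lay more than 10000 bp from the nearest summit on at least 1 side. So did the clusters Cpr64Aa to Cpr64Ad, Cpr72Ea to Cpr72Ec and Cpr76Ba to Cpr76Bd described before. Left of Cpr65Au the nearest summit was 36138 bp away with a score of 7.39 at loj, a p24 family secretory pathway gene, and right of Cpr65Az it was 12162 bp away with 14.1 at fmt. Left of Cpr65Ea it was 33875 bp away with 17.03 in the 3′ UTR of Mp, a collagen gene, whereas right of Cpr65Ec it was the summit of 19.7 near form3, 414 bp away. Left of Cpr62Ba it was 16372 bp away with 2.13 at GV1, and right of Cpr62Bc 14652 bp away with 12.7 at CG12024. Left of Cpr47Ea it was 28930 bp away with 64.9 at CG7737, and right of Cpr47Eg 1431 bp away with 9.99 at Vhl, the von Hippel-Lindau gene. Left of Cpr49Aa it was 31656 bp away with 18.5 at ana3, a centriole protein gene, and right of Cpr49Ah 8408 bp away with 6.63 at CG8520.

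The core promoters of the same genes have a feature that the choice of genes did not use. TATAAA, the core of the TATA box, lies on the gene's strand between 45 bp and 1 bp upstream of the start in 39 of the 70 Cpr genes (55.7%), and in 9.62% of all protein-coding genes. This window was set after seeing where TATAAA fell. From 250 bp upstream to 50 bp downstream on either strand, TATAAA was found at 49 Cpr genes (70%) and 45.8% of all genes, and TCAGT, letters of the initiator element, at 42 (60%) and 51.5%. CGATA was found at 24 Cpr genes (34.3%) and 47.4% of all genes, TATCGATA at 1 (1.43%) and 9.36%, and GAGAG at 23 (32.9%) and 29.7%. TATCGATA contains CGATA, so their counts overlap.

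The 60 bases before the start are printed for 8 Cpr genes, 5′ to 3′ on the gene's strand from dm6, with TATAAA in capitals, to show the position of these letters in members of the summit-free clusters and in Cpr30F, the gene with the strongest summit of its own. The genes are Cpr64Aa (chr3L:4209179-4209238, minus), Cpr65Ea (chr3L:7086609-7086668, minus), Cpr65Ax1 (chr3L:6147988-6148047, minus), Cpr65Ax2 (chr3L:6150858-6150917, minus), Cpr67Fa1 (chr3L:10889930-10889989, plus), Cpr72Eb (chr3L:16364839-16364898, plus), Cpr76Ba (chr3L:19518333-19518392, minus) and Cpr30F (chr2L:9933164-9933223, minus).
Cpr64Aa: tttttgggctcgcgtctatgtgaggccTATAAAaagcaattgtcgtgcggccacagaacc
Cpr65Ea: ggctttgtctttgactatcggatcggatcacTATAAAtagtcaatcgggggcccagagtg
Cpr65Ax1: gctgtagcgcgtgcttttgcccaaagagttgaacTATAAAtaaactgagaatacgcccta
Cpr65Ax2: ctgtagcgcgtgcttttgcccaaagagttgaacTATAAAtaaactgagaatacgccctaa
Cpr67Fa1: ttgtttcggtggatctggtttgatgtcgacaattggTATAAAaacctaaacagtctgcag
Cpr72Eb: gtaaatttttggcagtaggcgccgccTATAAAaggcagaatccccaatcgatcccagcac
Cpr76Ba: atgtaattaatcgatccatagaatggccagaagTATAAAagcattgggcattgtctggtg
Cpr30F: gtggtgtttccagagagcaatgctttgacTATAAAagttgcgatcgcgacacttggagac
The first base of TATAAA lies between positions −34 and −24 relative to the start in these 8 genes. They were picked from the Cpr genes that hold TATAAA in the window, over all of which the range is −45 to −22. Other members of summit-free clusters, such as Cpr64Ab and Cpr62Ba, hold none there. Cpr65Ax1 and Cpr65Ax2 show the close copies among the family, since their printed bases are the same but for a shift of 1 base.

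Across all protein-coding genes, those with TATAAA in that window had a summit less often, in a count that did not hold gene length equal. Of 1341 genes with it, 305 (22.7%) had a summit against IgG inside them or no more than 1000 bp away, and of the 12604 genes without it 55.2% had one. Among Cpr genes it was 5 of the 39 with TATAAA (12.8%) and 2 of the 31 without (6.45%). Against input it was 6 of 39 (15.4%) and 3 of 31 (9.68%) among Cpr genes, and 24.9% and 58.8% among all genes. Within the family, the genes with TATAAA thus did not have the lower share, at counts too small to order, and the part of promoter type in the result was not tested.

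Other genes of the cuticle were counted in the same way, by their role. Among 28 further genes that encode RR cuticle proteins, such as the Lcp and Ccp genes, 2 (7.14%) had a summit against IgG, where 52.1% of all genes did. These were Edg78E, with a highest score of 2.29, and resilin, the gene of an elastic cuticle protein, with 82.2. The resilin summit lay at least 3284 bp from the start of the gene, beyond the 3′ end of its 3267 bp. By nearest start, 1 of the 28 genes (3.57%), Edg78E, received a summit, where 41.5% of all genes did. Of the 25 Tweedle genes, which encode another family of cuticle proteins, 1 (4%), TwdlG with a score of 1.58, had one. None of the 9 obstructor genes, whose products carry another kind of chitin-binding domain, had one. The structural genes of the cuticle thus had shares of 0 to 10%, the Cpr genes among them. These are short genes, with median lengths of 749.5 bp (other RR), 1088 bp (Tweedle) and 1293 bp (obstructor). Of all genes below 1000 bp, 26.9% had a summit against IgG, and of those from 1000 to below 2000 bp, 48.4%.

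The enzymes and regulators were counted next, beside the 52.1% of all genes with a summit against IgG. Of 30 genes for chitin synthesis and remodelling, 11 (36.7%) had a summit against IgG, with the highest scores at mmy, which makes the activated sugar from which chitin is built (222.3), and rtv, needed for ordered chitin fibres (70.01). Of 17 regulators of moulting and epidermal differentiation, 13 (76.5%) had one, where 65.4% of all genes of 5000 bp or more did. EcR, the ecdysone receptor gene, held 15 summits with a highest score of 72.0, and usp, its partner, a highest score of 91.3. The lists differ in gene length, with a median of 1093.5 bp for the Cpr genes, 3453.5 bp for the chitin genes and 39895 bp for the regulators. Of all genes from 2000 to below 5000 bp, 60.8% had a summit against IgG. Against input the shares were 12.9% for Cpr genes, 7.14% for the other RR genes, 0% for the Tweedle genes, 46.7% for the chitin genes and 82.4% for the regulators.

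**Figure D4:**
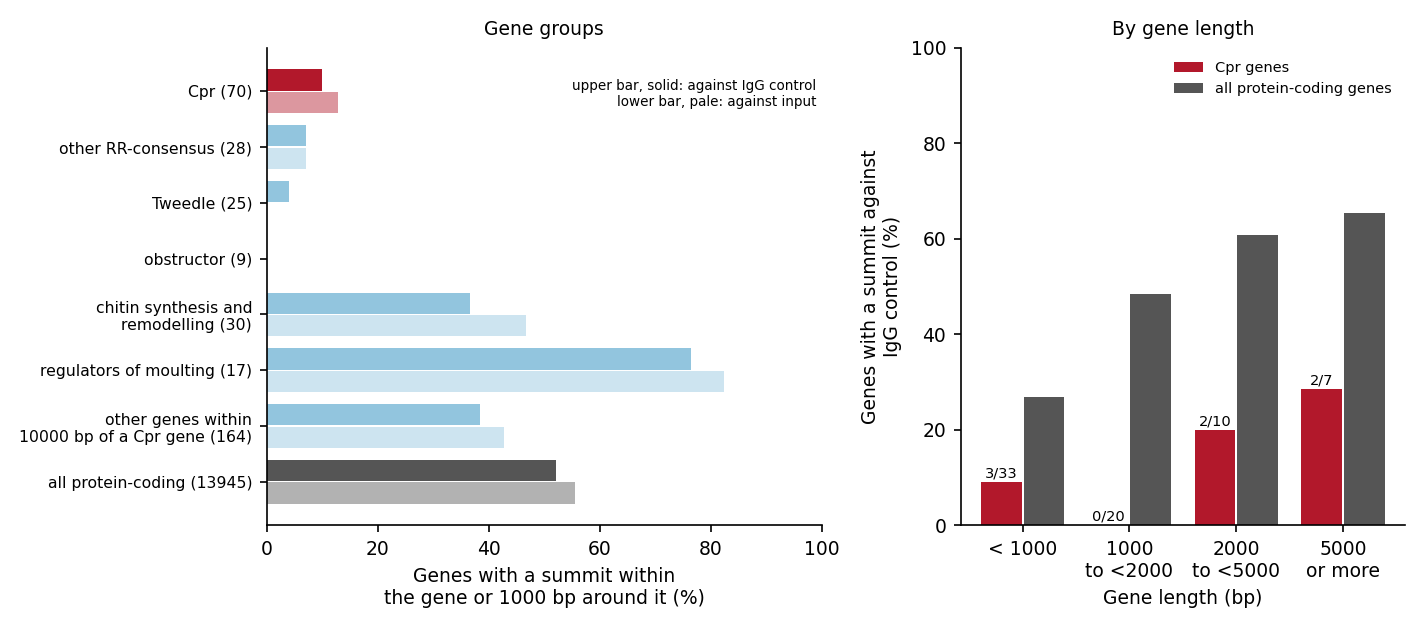
Share of genes (%) with a summit inside them or at most 1000 bp away, on the left by gene group, with solid bars against IgG and pale bars against input, and on the right by gene length against IgG, with Cpr genes in red and all protein-coding genes in grey. The bars of the Cpr genes end at 10% and 12.9% on the left and those of all genes at 52.1% and 55.5%, and in each length class the Cpr bar is the lower one.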

How the data were processed

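Flag-Dwg chromatin from S2R+ cells was precipitated after enzymatic fragmentation and sequenced by the authors in 2 ChIP, 2 IgG control and 2 input libraries. They trimmed reads (Trim Galore 0.6.4), mapped them to dm6 (Bowtie2 2.3.5.1), kept unique reads (SAMtools 1.6) and called peaks (MACS2 2.2.6). The deposited values used here are the authors' −log10 q-values of 1 bp summits, whose lowest value lies at the −log10 of 0.05. Whether replicates were pooled before calling is not stated in the methods, and peak limits and coverage were not used here.

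Genes came from Ensembl release 115 on dm6, and sequences and proteins from NCBI's RefSeq release of the same assembly. Positions are 1-based. Counts and shares over the Cpr genes were set beside those over all protein-coding genes, with no test, because the lists hold no value per library. The core of the RR consensus was searched with up to 1 mismatch and in a wider form added after seeing the data. Genes named are the Cpr genes with the highest scores or a summit nearest to their own start, those on either side of the 1000 bp limit, and the genes at cluster ends and borders; any other name was chosen with its values in view. The members and lists were chosen with earlier results of these data known, and 1 of 39 listed symbols matched no gene. Alternatives were score thresholds, the list against input, shared summits, other windows, flanks and gaps, and RefSeq gene limits. The counting was tested on simulated data first. Python 3.11.15, NumPy 2.4.6 and pandas 2.3.3 were used.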

Additional observations from a re-analysis of the deposited data

How the results depend on the processing

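The share of Cpr genes with a summit was below that of all protein-coding genes under each of the 13 alternatives tried for it. Of 58 alternative values over all results, 29 were within a factor of 1.5 of the main value. With scores of at least 5, 10 and 20, the Cpr genes with a summit against IgG, 7 in the full list, became 5, 4 and 4, those with one near their start, 2 in the full list, became 1 at both 10 and 20, and those nearest by start, 6 in the full list, became 3, 2 and 1. The same thresholds left 3, 3 and 1 of the 7 summits inside the clusters, and 13 and 8 of the 20 in the flanks at 10 and 20. They gave median highest scores of 55.4, 62.2 and 62.2, where the full list gave 26.5. Over all genes with a summit the medians were 34.7, 42.8 and 59.9, where the full list gave 29.7. At 20, 15 of the 27 other cuticle, chitin and regulator genes kept a summit. Against input, 5 Cpr genes had a summit near their start, where 39.6% of all genes did. The median highest score against input was 16.2, with 59.7 over all genes. Summits shared within 100 bp gave a median of 40.9, with 31.8 over all genes. The Cpr median was thus the lower one in some settings and the higher one in others. With 0, 500 and 2000 bp around the gene, 3, 4 and 11 Cpr genes had a summit, where 36.7%, 48.0% and 57.2% of all genes did. The median highest scores for the first 2 widths were 5.84 and 12.8, with 18.8 and 27.1 over all genes. Of alternatives chosen after seeing the data, 5000 bp gave 21 genes (30%, where 66.7% of all genes had one). Only summits nearest to the gene's own start gave 4 genes (5.71%, where 39.2% of all genes had one). Summits within 1000 bp of a start were nearest to 3 Cpr genes, and to 36.6% of all genes. Flanks of 5000 and 20000 bp held 10 and 59 summits.

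No paired analysis was possible because both lists hold only 1 score per summit and none per replicate, and leaving out a replicate was not possible for the same reason. Without counts or coverage, a gene with no summit cannot be told apart from one below the authors' q-value limit, and no count of 0 can be given an upper limit. Overlapping genes share summits. With 7 Cpr genes in the count, 1 gene is 1.43 percentage points.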
